A study of Homo sapiens with 18 samples.

Results

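IFI6, IFI27 and BST2 are 3 interferon-stimulated genes, and they make up 3 of the 60683 gene rows in each of 2 count tables. They were chosen from measured values: in the table of SETD3 lines their RNA stood below the control in the line labelled SETD3_KO1 and above it in the line labelled SETD3_KO2. Their values in those 3 groups are therefore given as a description, with no test. The other table, of actin lines, was not used by the choice, and there the 3 genes were tested.

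Poly(A) RNA of HCT-116 cells, a long-established line from a human colorectal carcinoma, was sequenced in 18 libraries that form 6 groups of 3. Every library of the first table comes from cells with the genotype Actin KO that stably carry a construct. The construct is empty in the group called Actin KO, holds wild-type actin in ACTB-WT and holds the H73A mutant of actin in ACTB-mut. The second table holds a SETD3 control (SETD3_CT) and the lines SETD3_KO1 and SETD3_KO2, both with the genotype label SETD3 KO. SETD3 is the methyltransferase that modifies the actin histidine changed in the H73A form. The labels give no promoter for the constructs, no account of how the lines were made, no word on whether a line is a single clone, and no interferon treatment. Nothing says that replicates come from different cultures, and p-values thus reflect only how these samples spread, which may be technical. SETD3_KO2 replicate 3 has the cell line label HCT-117 where the other 17 libraries have HCT-116. It was kept, and the log2 differences of the 3 genes in SETD3_KO2 are also given without it. Other results for SETD3_KO2 include it, apart from the ranges and counts of calls over fits that left out each library.

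Levels are given as CPM: a gene's counts per 1000000 counts in its library, after TMM, a scaling that corrects for library composition. Library totals ran from 3389586 to 11652967 counts, with the lowest and the highest both in SETD3_KO2. ACTB RNA was 14.9 to 24.9 CPM in Actin KO, 23.1 to 30.9 in ACTB-WT and 31.9 to 46.9 in ACTB-mut, and 661 to 1450 CPM in the SETD3 table. Its log2 difference from Actin KO was 0.56 in ACTB-WT, with overlap, and 1.11 in ACTB-mut, without overlap, and neither passed (edgeR adjusted p = 0.496 and 0.093). SETD3 RNA was 13.9 to 35.9 CPM in SETD3_CT, 6.32 to 17.1 CPM in SETD3_KO1 and 15.6 to 27.6 CPM in SETD3_KO2, so its RNA level overlapped the control in both lines and was not lower in the line labelled SETD3_KO2. Colon epithelium markers summed to between 7930 and 13400 CPM in every library, though VIL1 of that list had no count in SETD3_CT or SETD3_KO2. PTPRC and CD3E of the blood list, LILRA4, CLEC4C and IL3RA of the plasmacytoid dendritic list, COL3A1 and DCN of the fibroblast list and KDR of the endothelium list had no count in any group. Other markers of the blood and fibroblast lists had counts: the lists summed to between 0 and 20.0 CPM and between 0 and 15.2 CPM in a library, each highest in SETD3_KO2. In the plasmacytoid dendritic list only TCF4 had counts, and that list summed to at most 2.43 CPM in a library. Other endothelium markers also had counts, and that list summed to at most 2.23 CPM. CD68 stood at 3.58 to 8.62 CPM in SETD3_CT, 0 to 12.1 in SETD3_KO1 and 8.09 to 20.0 in SETD3_KO2. COL1A1 stood at 0.756 to 8.6, 0.469 to 2.57 and 2.97 to 15.2 CPM in the same order, higher in SETD3_KO2 than in SETD3_KO1 without overlap (log2 2.66, edgeR adjusted p = 0.999). Their part in the results was not tested. Mitochondrial transcripts, a sign of RNA quality, took 0.739% to 0.874% of counts in Actin KO, 0.636% to 0.778% in ACTB-WT and 0.91% to 1.61% in ACTB-mut, which lay above both. They took 0.983% to 1.7% in SETD3_CT, 0.815% to 0.952% in SETD3_KO1, below the control without overlap, and 0.919% to 1.31% in SETD3_KO2. Their part in the differences between these groups was not tested.

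Interferons are secreted proteins that bind receptors at the cell surface and activate the kinases JAK1 and TYK2. Type I and type III interferons lead to a transcription factor complex with STAT2 and IRF9, which binds the interferon-stimulated response element (ISRE) in promoters, whereas type II interferon acts through the gamma-activated site (GAS). IFI6 and IFI27 encode small hydrophobic membrane proteins of the ISG12 family; IFI6 is known to limit apoptosis and the replication of flaviviruses, and IFI27 has been described at mitochondria and at the nuclear envelope. BST2, also called tetherin, is a membrane protein that holds budding enveloped viruses at the cell surface. Epithelial tumour cells can express such genes without added interferon.

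The promoters are shown because the 3 genes are classed together by their response to interferon, and the motifs that define that response can be read in their sequence. Each window holds 250 bases before and 50 bases after the RefSeq start on the strand of the gene (GRCh38.p14), and capitals mark matches to an ISRE, searched as GAAANNGAAA on both strands. The IFI6 window is chr1:27672143-27672442 on the minus strand, the IFI27 window is chr14:94110486-94110785 on the plus strand, and the BST2 window is chr19:17405581-17405880 on the minus strand.
IFI6: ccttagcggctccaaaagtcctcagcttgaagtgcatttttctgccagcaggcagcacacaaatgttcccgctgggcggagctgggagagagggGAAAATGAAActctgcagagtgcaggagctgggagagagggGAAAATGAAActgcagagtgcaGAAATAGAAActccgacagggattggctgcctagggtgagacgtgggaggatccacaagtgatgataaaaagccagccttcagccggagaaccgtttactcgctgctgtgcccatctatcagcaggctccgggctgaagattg
IFI27: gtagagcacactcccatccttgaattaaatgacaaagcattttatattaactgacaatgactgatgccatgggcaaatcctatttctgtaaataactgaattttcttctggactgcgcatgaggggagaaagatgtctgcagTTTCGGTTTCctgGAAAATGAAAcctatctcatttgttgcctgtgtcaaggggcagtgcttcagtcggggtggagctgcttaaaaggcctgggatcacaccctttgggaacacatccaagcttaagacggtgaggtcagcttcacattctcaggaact
BST2: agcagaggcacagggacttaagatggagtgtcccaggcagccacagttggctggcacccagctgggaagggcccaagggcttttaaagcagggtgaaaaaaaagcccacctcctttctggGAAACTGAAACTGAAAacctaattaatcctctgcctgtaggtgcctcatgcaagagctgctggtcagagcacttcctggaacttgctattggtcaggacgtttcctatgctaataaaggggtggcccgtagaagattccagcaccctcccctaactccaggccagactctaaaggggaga

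All 3 windows hold at least 2 ISRE matches, as 91 of 35116 RefSeq promoter windows do (0.259%); 1255 of them (3.57%) hold at least 1. Positions are counted from the start, with the first transcribed base as 1 and the base before it as -1. IFI6 has 3 matches, at -156 to -147, -115 to -106 and -93 to -84. The first and the second of these have the same letters, GAAAATGAAA, which also occur in the IFI27 window at -95 to -86. IFI27 has its other match, TTTCGGTTTC, on the opposite strand at -108 to -99. RefSeq gives IFI27 a second start, with the window chr14:94110565-94110864, from which the same letters lie at -187 to -178 and -174 to -165. In BST2 the matches at -130 to -121 and -124 to -115 share bases and form 1 longer repeat. A GAS, searched as TTCNNNGAA, a pattern that reads alike on both strands, was found at -101 to -93 in IFI27, overlapping both of its ISRE matches. BST2 had GAS matches at -136 to -128, overlapping its first ISRE match, and at -58 to -50, and IFI6 had none. Over all windows 7.66% held a GAS. Of the 104 other interferon pathway genes with a window, 49 (47.1%) held an ISRE and 28 (26.9%) a GAS in at least 1 window. These are shares of genes, which can have several windows each, whereas the shares over all windows count single windows. A match is a run of letters and was not tested for binding, and none of these files measures binding.

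**Figure D1:**
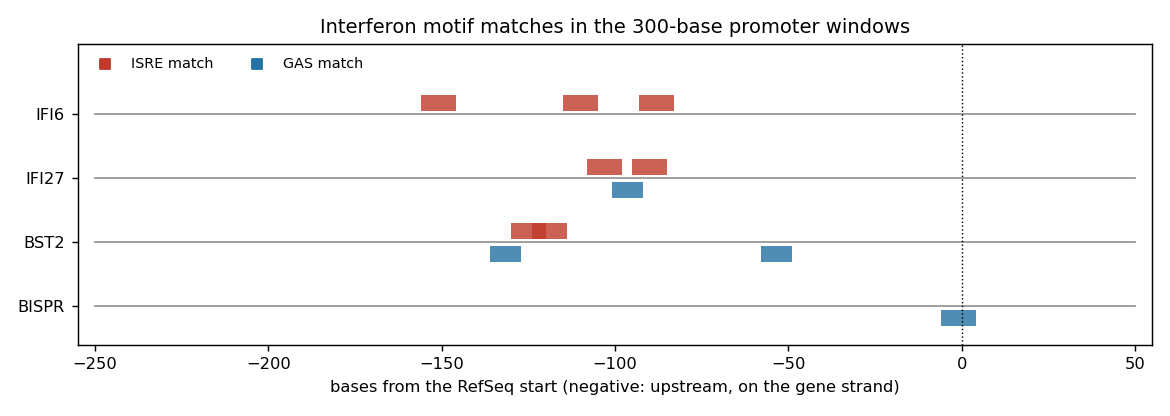
Positions of ISRE matches (red, above each line) and GAS matches (blue, below) in the promoter windows of IFI6, IFI27, BST2 and BISPR, a lincRNA next to BST2; the x axis is distance in bases from the RefSeq start (dotted line). In these windows all ISRE matches of the 3 genes lie between -156 and -84, and BISPR has none; for IFI27 the printed window is drawn.

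IFI6 (ENSG00000126709) lies on chromosome 1, bases 27666061 to 27672218 of GRCh38, on the minus strand. Its RNA stood at 133, 187 and 165 CPM in the SETD3_CT libraries, at 39.7, 40.4 and 47.5 CPM in SETD3_KO1, and at 344, 282 and 278 CPM in SETD3_KO2. The 3 groups did not overlap: every SETD3_KO1 library was below, and every SETD3_KO2 library above, every control. The log2 difference from SETD3_CT was -1.93 (SE 0.21; 3.8-fold lower) in SETD3_KO1 and 0.90 (SE 0.2; 1.86-fold higher) in SETD3_KO2. Between the lines it was 2.82 (SE 0.21), a 7.08-fold difference. In RNA from bulk cultures, less RNA in each cell and fewer cells with the RNA cannot be told apart. None of the 18 deposited values of IFI6 was a whole number within 0.005, so some of its reads were shared out between genes or transcripts in the counting, and its level is uncertain to that extent.

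IFI27 (ENSG00000165949) lies on chromosome 14, bases 94104836 to 94116698, on the plus strand. In SETD3_CT it stood at 63.3, 117 and 71.4 CPM, in SETD3_KO1 at 34.5, 38.1 and 30.9 CPM, and in SETD3_KO2 at 694, 625 and 529 CPM. The groups again did not overlap, and the control with the highest value, replicate 2, was the shallowest library of its group. IFI27 differed from SETD3_CT by -1.28 on the log2 scale (SE 0.24; 2.42-fold lower) in SETD3_KO1, or by -0.96 without SETD3_CT replicate 2. In SETD3_KO2 the difference was 2.88 (SE 0.25; 7.36-fold higher), and from line to line it was 4.16 (SE 0.27; 17.8-fold). Whereas the control was nearer to SETD3_KO2 for IFI6, on the log2 scale it was nearer to SETD3_KO1 for IFI27.

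BST2 (ENSG00000130303) lies on chromosome 19, bases 17402939 to 17405648, on the minus strand. Its RNA stood at 29.9, 25.6 and 43.1 CPM in SETD3_CT and at 4.13, 2.58 and 1.82 CPM in SETD3_KO1, where the 3 libraries held 28, 22 and 12 counts. SETD3_KO2 held 69.8, 43.0 and 41.3 CPM. SETD3_KO1 was apart from both other groups, while 2 of the 3 SETD3_KO2 libraries lay within the range of the controls. That overlap is of 43.0 with 43.1 CPM, and without TMM SETD3_KO2 lay above SETD3_CT with no overlap. The log2 difference from SETD3_CT was -3.53 (SE 0.43; 11.5-fold lower) in SETD3_KO1 and 0.64 (SE 0.37; 1.56-fold higher) in SETD3_KO2. BST2 thus differed between the lines by 4.17 (SE 0.44; 17.9-fold), nearly all of it on the SETD3_KO1 side of the control.

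Against SETD3_CT, all 3 genes lay lower without overlap in SETD3_KO1, as 6.72% of the 13846 tested genes did, and 2 of the 3 lay higher without overlap in SETD3_KO2 (3 of 3 without TMM), as 4.97% did. SETD3_KO2 was above SETD3_KO1 without overlap for all 3, as for 6.14% of genes. These counts follow from the choice of the genes. Without SETD3_KO2 replicate 3, the library labelled HCT-117, the log2 differences between the lines were 2.87 for IFI6, 4.25 for IFI27 and 4.3 for BST2, and those of SETD3_KO2 from SETD3_CT were 0.95, 2.98 and 0.77. Over the 9 fits that each left out 1 library, those of SETD3_KO2 from SETD3_CT ran from 0.78 to 1.01, 2.71 to 3.19 and 0.36 to 0.88. SETD3_KO2 replicate 1, the shallowest library of the series at 3389586 counts, held the highest value of its group for all 3 genes. For BST2 that value was 69.8 CPM. At the edge of the choice, BST2 was kept although SETD3_KO2 overlapped SETD3_CT. Just outside it, IFITM1, an antiviral membrane protein, stood at 10.3, 7.51 and 9.7 CPM in SETD3_CT, at 0, 0 and 13.3 CPM in SETD3_KO1 and at 47.6, 40.1 and 25.2 CPM in SETD3_KO2.

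**Figure D2:**
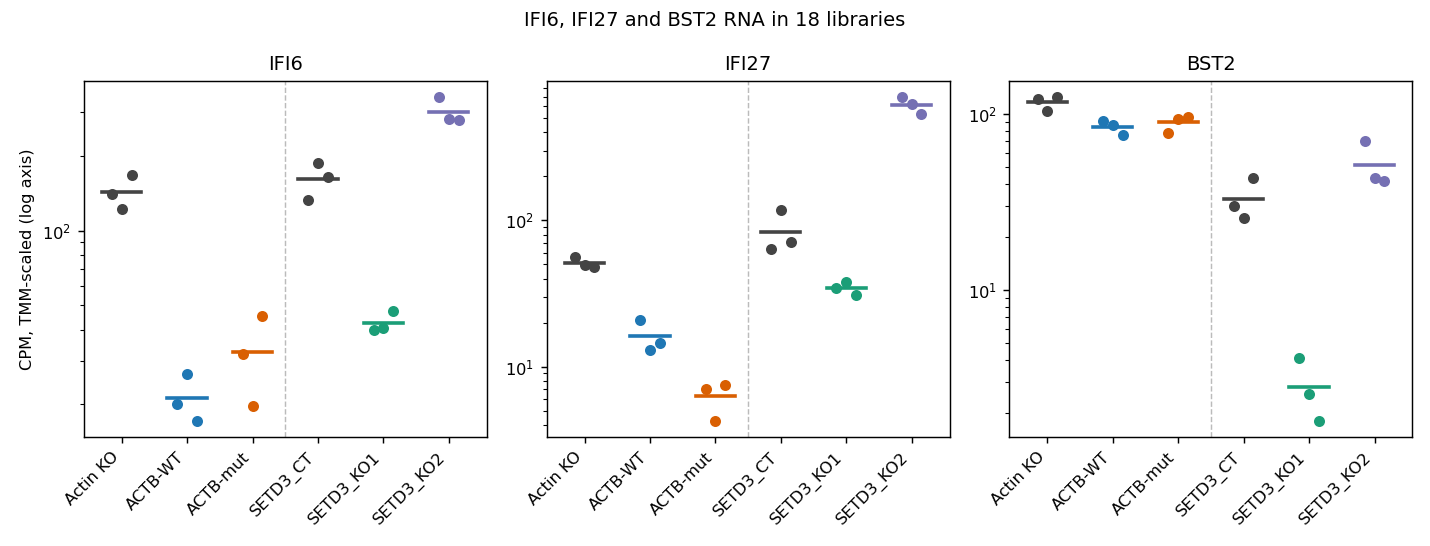
RNA levels of IFI6, IFI27 and BST2 (CPM, log axis, 1 point a library, bar at the group mean) in the 6 groups, with a dashed line between the 2 tables. SETD3_KO1 lies below and SETD3_KO2 above SETD3_CT except for BST2, where SETD3_KO2 overlaps the control, and IFI6 and IFI27 lie lower in both actin groups labelled with actin than in Actin KO.

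In the actin table the question was whether the 3 genes differed between Actin KO cells with the empty construct and those labelled as carrying wild-type or mutant actin. IFI6 and IFI27 fell in both groups labelled with actin, and BST2 was lower by less than the test could call. IFI6 stood at 140, 122 and 167 CPM in the Actin KO group, at 20.0, 26.4 and 17.2 CPM in ACTB-WT and at 31.9, 19.7 and 45.5 CPM in ACTB-mut. Both groups labelled with actin lay below all Actin KO libraries and overlapped each other. In edgeR's quasi-likelihood test with Benjamini-Hochberg adjustment over 13882 genes, IFI6 fell by 2.75 on the log2 scale in ACTB-WT (SE 0.28, 6.72-fold lower, adjusted p = 8.05e-05). In ACTB-mut it fell by 2.15 (SE 0.27, 4.43-fold lower, edgeR adjusted p = 0.00138). Between ACTB-mut and ACTB-WT the log2 difference was 0.60 (SE 0.27, edgeR adjusted p = 0.393).

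IFI27 stood at 56.4, 49.6 and 48.3 CPM in the libraries of Actin KO, at 20.8, 13.1 and 14.6 CPM in those of ACTB-WT and at 7.06, 4.28 and 7.46 CPM in those of ACTB-mut. No 2 of these groups overlapped, and ACTB-mut was the lowest. IFI27 fell by 1.67 on the log2 scale in ACTB-WT (SE 0.31, 3.18-fold lower, edgeR adjusted p = 0.0118) and fell by 3.03 in ACTB-mut (SE 0.32, 8.19-fold lower, edgeR adjusted p = 0.000466). The call in ACTB-WT was lost without Actin KO replicate 1, ACTB-WT replicate 2 or ACTB-WT replicate 3, at log2 differences of -1.6, -1.55 and -1.61 and edgeR adjusted p = 0.078, 0.0685 and 0.054. Over its 16 alternatives the adjusted p ran from 8.37e-05 to 0.078. ACTB-mut was lower than ACTB-WT by a log2 difference of -1.36 (SE 0.31, 2.57-fold lower, edgeR adjusted p = 0.0466). That call was lost in all 9 fits that left out a library, at edgeR adjusted p from 0.0717 to 0.179, and over the 16 alternatives the adjusted p ran from 0.00439 to 0.179.

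BST2 stood at 121, 103 and 124 CPM in the Actin KO group, at 91.1, 86.4 and 76.1 CPM in ACTB-WT and at 78.1, 93.5 and 96.1 CPM in ACTB-mut. All 6 libraries labelled with actin were below all 3 Actin KO libraries, and those groups overlapped each other. The log2 difference from Actin KO was -0.45 in ACTB-WT (SE 0.16, 1.37-fold, edgeR adjusted p = 0.256) and -0.37 in ACTB-mut (SE 0.16, 1.3-fold, edgeR adjusted p = 0.372), so neither passed the test. Between the groups labelled with actin it was 0.08 (SE 0.16, edgeR adjusted p = 0.931).

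Of the 3 genes, 2 were called lower in ACTB-WT against Actin KO, where 0.677% of the 13882 tested genes were called lower and 1.12% were called in either direction. The same 2 were called lower in ACTB-mut against Actin KO, against 0.598% lower and 0.922% in either direction. Both comparisons use the same Actin KO libraries. Between ACTB-mut and ACTB-WT, 1 of the 3 was called, lower, against 0.605% lower and 1.24% in either direction; it was also the 1 of the 3 that lay lower without overlap, as 8.14% of genes did. All 3 lay below Actin KO without overlap in both groups labelled with actin, as did 9.09% of tested genes in ACTB-WT and 9.16% in ACTB-mut.

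Set in order of mean level over all 6 groups, the genes differed in where the tables fell. The tables were scaled separately, so levels across them also carry any difference between the 2 sets of libraries. IFI6 ran from ACTB-WT (21.2 ± 4.71 CPM, SD, n = 3) through ACTB-mut (32.4 ± 12.9) and SETD3_KO1 (42.5 ± 4.32) to Actin KO (143 ± 22.9), SETD3_CT (162 ± 26.9) and SETD3_KO2 (301 ± 37.2). Its neighbours overlapped at the low end and between Actin KO and SETD3_CT, which left 3 levels apart. IFI27 ran from ACTB-mut (6.27 ± 1.73 CPM, SD, n = 3) through ACTB-WT (16.2 ± 4.09), SETD3_KO1 (34.5 ± 3.6), Actin KO (51.4 ± 4.34) and SETD3_CT (83.9 ± 28.9) to SETD3_KO2 (616 ± 82.5), with no overlap between neighbours. BST2 had another order: SETD3_KO1 (2.84 ± 1.18 CPM, SD, n = 3), SETD3_CT (32.9 ± 9.09), SETD3_KO2 (51.4 ± 16), ACTB-WT (84.5 ± 7.64), ACTB-mut (89.2 ± 9.71) and Actin KO (116 ± 11.4). All actin libraries were above all SETD3 libraries for BST2, while SETD3_KO2 was the highest group for IFI6 and IFI27. The order was the same without TMM and with TMM over all 18 libraries, a scaling chosen after seeing the data; without TMM, SETD3_CT and SETD3_KO2 were also apart for BST2.

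Upstream of the 3 genes, the interferon genes themselves had almost no reads. Of 22 interferon genes in the tables, 19 had no count in any of the 18 libraries, which allows a level of up to 0.257 CPM in the deepest and 0.885 CPM in the shallowest library (3 counts; counting error only). The other 3 were type III interferons with few reads over all libraries: IFNL1 with 14 counts, IFNL2 with 41 and IFNL3 with 12. These were not spread evenly, as the largest count in a single library was 11, 17 and 9 in the same order.

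None of the 8 tested receptor and kinase genes was called in a SETD3 comparison, where at most 0.0578% of all tested genes were called. IFNAR1, a chain of the type I interferon receptor, stood at 28.3 ± 5.77 CPM in SETD3_CT, 34.0 ± 2.54 in SETD3_KO1 and 27.0 ± 10.8 in SETD3_KO2 (SD, n = 3). TYK2, a kinase bound to that receptor, stood at 35.7 ± 7.58, 36.1 ± 1.81 and 32.3 ± 6.48 CPM. JAK1 ran at 10.1 ± 16.5, 14.6 ± 6.73 and 10.9 ± 3.44 CPM and IFNAR2 at 10.6 ± 4.57, 9.27 ± 2.33 and 8.68 ± 7.64 CPM, and JAK2 had no count in SETD3_CT or SETD3_KO1. IFNLR1 and IL10RB, the chains of the type III receptor, stood at 23.9 and 15.6 CPM in SETD3_CT, 18.3 and 19.8 in SETD3_KO1, and 12.9 and 25.1 in SETD3_KO2. Of the type II receptor, IFNGR1 stood at 4.48, 1.6 and 1.59 CPM and IFNGR2 at 28.8, 28.4 and 31.0 CPM in the same order. Among the actin lines 1 of 8 was called, in ACTB-WT against Actin KO: IFNGR2 fell by 1.01 on the log2 scale, from 50.8 ± 5.4 to 25.1 ± 3.42 CPM (SE 0.23, edgeR adjusted p = 0.0497). Of all tested genes 1.12% were called in that comparison and 0.677% were called lower, and limma-voom did not call IFNGR2.

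Among the transcription factors, IRF9, a DNA-binding part of the complex with STAT2, was the nearest to IFI6 in its course. IRF9 stood at 15.1 ± 5.39 CPM in SETD3_CT, 4.12 ± 1.9 in SETD3_KO1 and 15.6 ± 4.66 in SETD3_KO2 (SD, n = 3). SETD3_KO1 lay below both other groups without overlap and SETD3_KO2 lay with the control. The log2 difference of SETD3_KO1 from SETD3_CT was -1.87 and did not pass (edgeR adjusted p = 0.64). In the actin table IRF9 fell by 2.70 on the log2 scale in ACTB-WT, from 14.1 ± 3.09 to 2.15 ± 0.128 CPM (SE 0.55, edgeR adjusted p = 0.0248). In ACTB-mut it was at 3.16 ± 0.822 CPM, a log2 difference of -2.15 that did not pass (edgeR adjusted p = 0.0777). Which of these comparisons passed depended on the tool: against Actin KO, DESeq2 called IRF9 lower only in ACTB-WT and limma-voom only in ACTB-mut.

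STAT2 was read at 3.77 CPM in SETD3_CT, 2.14 in SETD3_KO1 and 4.03 in SETD3_KO2. IRF7, an interferon-induced factor, stood at 42.2 ± 17.5, 23.5 ± 6.86 and 47.9 ± 8.12 CPM in the same groups (SD, n = 3). IRF1 stood at 24.5 ± 4.94, 23.9 ± 4.22 and 26.8 ± 3.32 CPM, and IRF3, which acts downstream of nucleic acid sensors, at 82.4 ± 30.5, 72.5 ± 23.9 and 91.8 ± 38.4 CPM. IRF5 stood at 25.3, 22.4 and 20.6 CPM and IRF2 at 1.27, 3.41 and 3.21 CPM, while IRF8 had no count in any library. No SETD3 comparison called any of the 9 factors tested, and at most 0.0578% of all tested genes were called in any of them.

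Counted over all lists, 78 of the 133 other interferon pathway genes in the tables passed the filter on low counts in the actin table and 84 in the SETD3 table. The lists were chosen with earlier results of these data known. In ACTB-WT against Actin KO, 8 of 78 (10.3%) were called, all lower, beside 1.12% of all tested genes called and 0.677% called lower, and 4 were called when any 1 of the 6 libraries compared was left out. Their median log2 difference was -0.58, beside -0.01 over all tested genes, and 62 of 78 were below zero. ISG15, a ubiquitin-like modifier, fell from 2080 ± 254 to 1150 ± 45 CPM (log2 -0.86, SE 0.11, edgeR adjusted p = 0.000885). OAS3, a sensor of double-stranded RNA that makes oligoadenylate, fell from 80.5 ± 13.6 to 30.5 ± 4 CPM (log2 -1.4, edgeR adjusted p = 0.00391). PSMB9, an immunoproteasome subunit, fell from 40.1 ± 8.7 to 4.35 ± 2.98 CPM (log2 -3.24, edgeR adjusted p = 0.00261). OAS1 and PARP10 fell from 8.06 and 7.7 CPM to 0.192 and 0.25 CPM, levels that rest on 4 and 5 counts in ACTB-WT (edgeR adjusted p = 0.0497 and 0.0125).

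In ACTB-mut against Actin KO, 5 of 78 (6.41%) were called, again all lower, beside 0.922% of all tested genes called and 0.598% called lower, with a median log2 difference of -0.32 beside 0.03 over all genes. Leaving out Actin KO replicate 3 left 2 calls, and leaving out ACTB-mut replicate 1 left 3. OAS3 fell to 26.7 ± 2.93 CPM (log2 -1.59, edgeR adjusted p = 0.00264) and ISG15 to 1330 ± 186 CPM (log2 -0.65, edgeR adjusted p = 0.0135). IFITM3, which blocks virus entry, fell from 1550 ± 61.9 to 818 ± 226 CPM (log2 -0.92, edgeR adjusted p = 0.0148). ADAR, an RNA-editing enzyme, fell from 188 to 106 CPM, and LGALS3BP, a secreted galectin-binding glycoprotein, from 841 to 475 CPM (edgeR adjusted p = 0.0151 and 0.0042). Between ACTB-mut and ACTB-WT, 3 of 78 were called, 2 of them higher, as 0.634% of all genes were. PARP10, a mono-ADP-ribosyltransferase, was higher in ACTB-mut (6.24 against 0.25 CPM, edgeR adjusted p = 0.0194) and LGALS3BP lower (475 against 699 CPM, edgeR adjusted p = 0.0367). PARP9, the third, had no count in ACTB-WT and stood at 4.5 ± 1.7 CPM in ACTB-mut. None was called without ACTB-WT replicate 2, ACTB-mut replicate 1 or ACTB-mut replicate 3, and 1 without ACTB-WT replicate 1.

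No other pathway gene was called in the 3 SETD3 comparisons by edgeR, where the shares of all tested genes called were 0.0144%, 0.0578% and 0.0289%. At an unadjusted p below 0.05, SETD3_KO1 had 13 of 84 lower and 1 higher than SETD3_CT, beside 3% lower and 2.74% higher over all genes. SETD3_KO2 had 2 lower and 1 higher than SETD3_CT, beside 2.28% and 2.68% of all genes, and 0 lower and 11 higher than SETD3_KO1, beside 2.12% and 2.72%. DESeq2 called BATF2, ISG15 and OAS1 lower in SETD3_KO1 than in SETD3_CT and ISG15 and OAS1 higher in SETD3_KO2 than in SETD3_KO1, and limma-voom called ISG15 in both comparisons; neither tool called a pathway gene in SETD3_KO2 against SETD3_CT. Without SETD3_KO1 replicate 3, edgeR called 1 gene in each comparison with SETD3_KO1. The median log2 difference of the 84 genes was -0.38 in SETD3_KO1, 0.03 in SETD3_KO2 and 0.38 between the lines, beside -0.02, -0.01 and 0.01 over all genes. By count of groups without overlap, 18 of 84 (21.4%) were lower in SETD3_KO1 than in SETD3_CT, beside 6.72% of all genes. Against SETD3_CT, 6 of 84 (7.14%) were higher in SETD3_KO2, beside 4.97%, and 6 were lower, beside 5.28%. In SETD3_KO1, 5 of 84 (5.95%) were higher than in SETD3_CT. Between the lines, 15 of 84 (17.9%) were higher in SETD3_KO2 than in SETD3_KO1, beside 6.14%, and 2 (2.38%) were lower. For the 5 and the 2, no share of all genes is given.

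ISG15 had its SETD3_KO2 libraries at the level of the controls. It stood at 2690, 3440 and 3140 CPM in SETD3_CT, at 1480, 1120 and 1780 CPM in SETD3_KO1 and at 2730, 3010 and 2820 CPM in SETD3_KO2. SETD3_KO1 lay below both other groups, and all 3 SETD3_KO2 libraries lay within the range of the controls. The log2 difference of SETD3_KO1 from SETD3_CT was -1.08 (SE 0.18) and did not pass (edgeR adjusted p = 0.0792). OAS1, with 2 counts in all of SETD3_KO1, was spread within the other groups, at 21.6, 0.442 and 14.1 CPM in SETD3_CT and 0.952, 21.6 and 15.0 CPM in SETD3_KO2. Of 66 other pathway genes with at least 5 CPM in a SETD3 group, 1 had every SETD3_KO1 library below and every SETD3_KO2 library above the mean of SETD3_CT: TLR3, a receptor for double-stranded RNA. No share of all genes with this split is given, so 1 of 66 cannot be read as few or many. TLR3 stood at 3.58, 1.99 and 1.76 CPM in SETD3_CT, 0, 1.76 and 0.151 CPM in SETD3_KO1 and 6.35, 4.95 and 4.29 CPM in SETD3_KO2, and its difference between the lines did not pass (log2 2.96, edgeR adjusted p = 0.999).

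**Figure D3:**
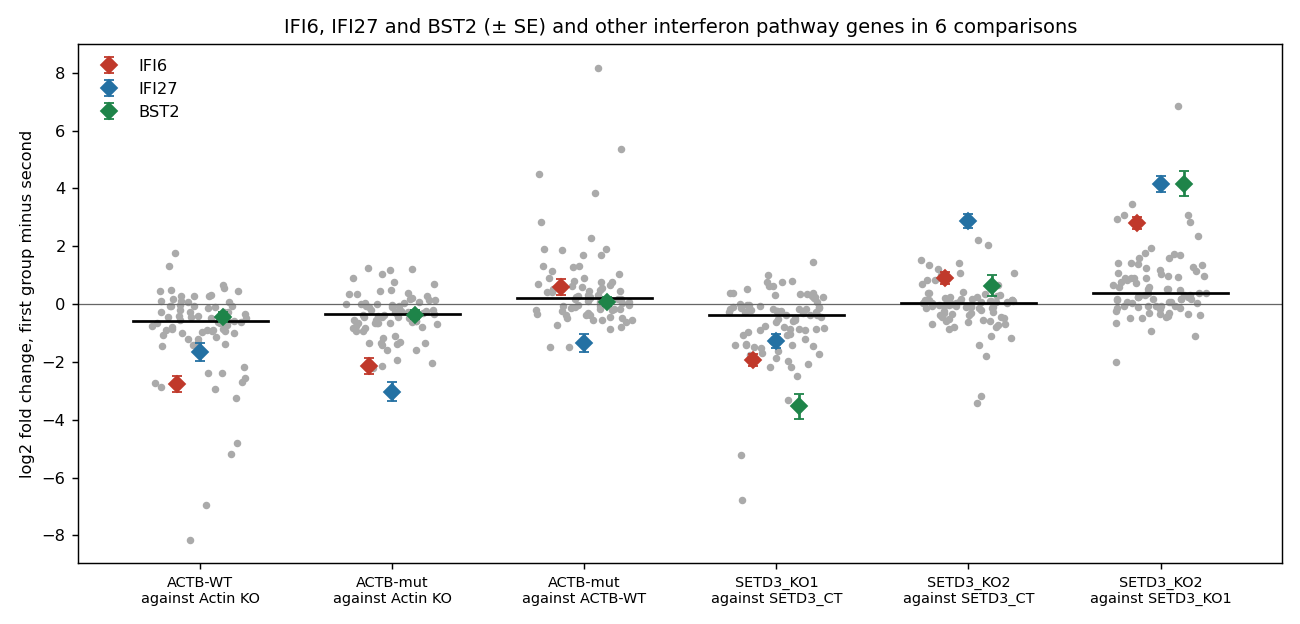
Log2 differences (y axis, first group minus second) in the 6 comparisons for IFI6, IFI27 and BST2 (diamonds, ± SE) and for the other interferon pathway genes that passed the filter (grey points, black bar at their median). In SETD3_KO2 against SETD3_CT the median of the other genes is 0.03 while IFI27 is at 2.88.

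**Figure D4:**
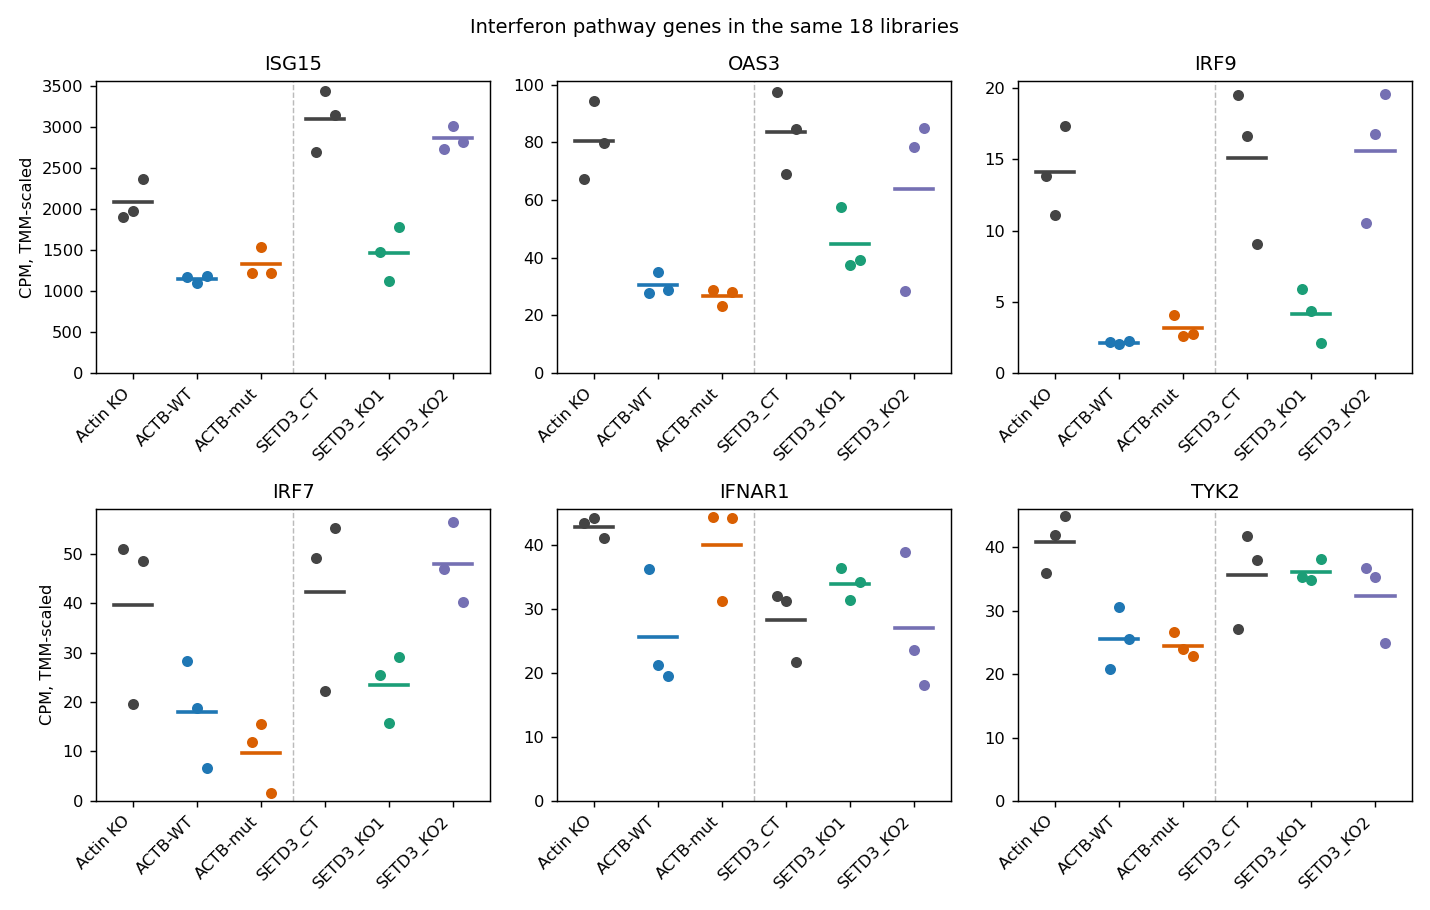
RNA levels (CPM, linear axes from 0, 1 point a library, bar at the group mean) of ISG15, OAS3, IRF9, IRF7, IFNAR1 and TYK2 in the 6 groups, with a dashed line between the 2 tables. ISG15 is between 1120 and 1780 CPM in SETD3_KO1 and between 2730 and 3010 CPM in SETD3_KO2, where it lies within the range of SETD3_CT, and IFNAR1 and TYK2 overlap between the SETD3 groups.

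None of the tested coding genes next to the 3 on the chromosome was called in a comparison, and 1 of them, FAM76A, had the signs of its neighbour throughout the comparisons with a control. Of all tested genes, between 0.0144% and 1.24% were called in a comparison, so few calls would be found among so few genes in any case. IFI27L1 and IFI27L2, relatives of IFI27 in the ISG12 family, lie 990 bases before and 11081 bases after the IFI27 gene, and their promoter windows hold neither motif. IFI27L1 stood at 49.2 ± 15.7 CPM in SETD3_CT, 28.3 ± 14.4 in SETD3_KO1 and 54.7 ± 26.2 in SETD3_KO2 (SD, n = 3), and its log2 difference between the lines was 0.94 (edgeR adjusted p = 0.999), beside 4.16 for IFI27. IFI27L2 differed by 0.19 between the lines. In the actin table IFI27L1 differed from Actin KO by -0.06 and 0.17 and IFI27L2 by 0.29 and 0.45 on the log2 scale in ACTB-WT and ACTB-mut, where IFI27 fell. MVB12A, an endosomal sorting subunit whose gene begins 74 bases from BST2 on the other strand, stood at 161, 126 and 161 CPM in SETD3_CT, SETD3_KO1 and SETD3_KO2. Its log2 difference between the lines was 0.35 (edgeR adjusted p = 0.999), beside 4.17 for BST2. FAM76A lies 53761 bases from IFI6 and was read at 0.706 to 4.46 CPM in group means. Its log2 differences were -0.57 in ACTB-WT and -1.58 in ACTB-mut against Actin KO, -0.98 in SETD3_KO1 and 0.91 in SETD3_KO2 against SETD3_CT and 1.9 between the lines, each with the sign of IFI6 (edgeR adjusted p = 0.911, 0.57, 0.998, 1 and 0.999). In ACTB-mut against ACTB-WT, FAM76A had the opposite sign, at -1.01 beside 0.6 for IFI6 (edgeR adjusted p = 0.771 for FAM76A). Also beside IFI6, FGR had 19 counts in SETD3_KO2 and 0 in the other groups, and AL445490.1, an antisense gene that overlaps IFI6, had 3 counts in all. The strand setting of the counting is not given in the sources used here, so reads of overlapping genes could not be told apart.

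BISPR is a lincRNA on the plus strand whose promoter window shares 155 bases with that of BST2 and holds no ISRE match. It was read at 1.26, 1.99 and 2.39 CPM in SETD3_CT, at 0, 0.351 and 0.151 CPM in SETD3_KO1 and at 0, 0.18 and 0.33 CPM in SETD3_KO2. Both lines lay below SETD3_CT, on 4 and 6 counts against 41, so BISPR was not higher in SETD3_KO2, where the mean of BST2 was; its log2 difference there was -3.17 (edgeR adjusted p = 1). In the actin table BISPR held 65 counts with the empty construct, 7 in ACTB-WT and 82 in ACTB-mut.

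**Figure D5:**
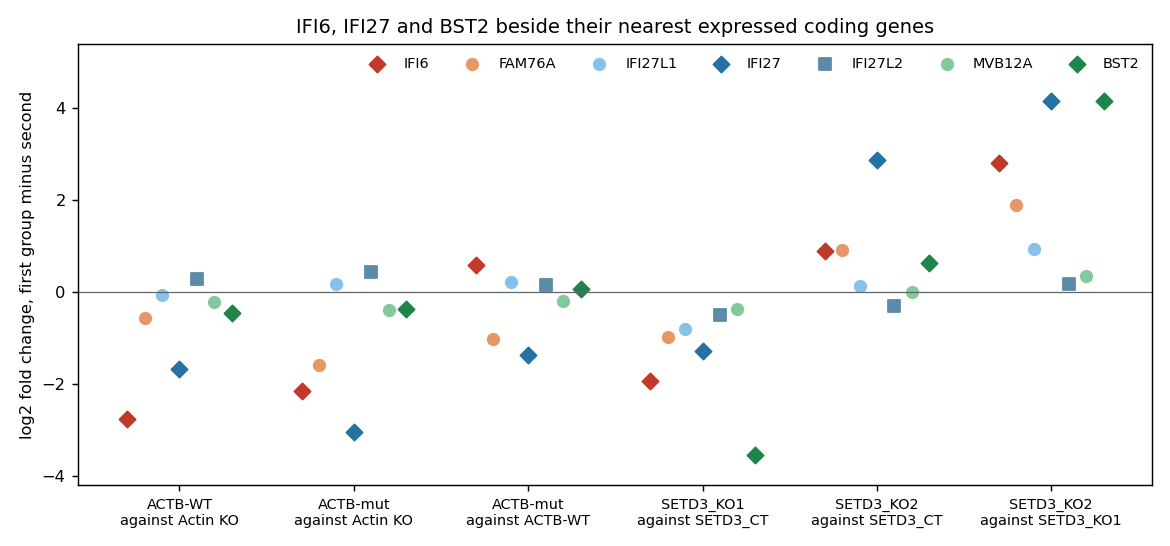
Log2 differences (y axis, first group minus second) of IFI6, IFI27 and BST2 (diamonds) beside their nearest coding genes that passed the filter on low counts, FAM76A, IFI27L1, IFI27L2 and MVB12A, in the 6 comparisons. Between SETD3_KO2 and SETD3_KO1 these neighbours lie at 1.9, 0.94, 0.19 and 0.35 and IFI6, IFI27 and BST2 at 2.82, 4.16 and 4.17.

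The genes with the most similar course were found by the mean absolute difference of log2(CPM + 1), centred within each table, over 18 libraries and 10682 genes with at least 5 CPM in some group. This is a description, since libraries, depth and scaling are shared by all genes. The 9 SETD3 libraries among them also chose the 3 genes, so the ranks of the 3 for each other are partly fixed by the choice. Nearest to IFI6 were IRF9 (0.48), TLR3 (0.56), GPR162 (0.6), AL365181.2 (0.62) and PSMB9 (0.65), beside 1.06 for the mean absolute deviation of IFI6 itself. IFI27 came at rank 13 for IFI6 (0.69) and BST2 at rank 14 (0.7). Nearest to IFI27 were IFI6 (0.69), FXYD3 (0.8), DLK2 (0.81), SPNS3 (0.82) and SLC1A4 (0.83), and its own deviation was 1.31. For BST2 the list began with AL365181.2 (0.52), FXYD3 (0.54), LINC00909 (0.58), RTBDN (0.59) and ZNF33B (0.59), beside a deviation of 0.86. IFI6 came at rank 40 for BST2, and IFI27 at rank 3195 with a difference of 0.92. FXYD3, a regulator of the sodium pump, stood at 28.5 CPM in SETD3_CT, 11.4 in SETD3_KO1 and 64.5 in SETD3_KO2. AL365181.2 stood at 5.84, 0.101 and 4.67 CPM, with SETD3_KO1 lowest and SETD3_KO2 near the control.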

How the data were processed

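The deposited values are RSEM expected counts per gene without normalisation, in 2 tables of 9 libraries; per the submitters' processing notes the authors used Trim Galore 0.4.5, cutadapt 1.15, RSEM 1.2.28 and Bowtie2 on GRCh38. Annotation release and strand setting are not given in the sources used here. Expected counts were rounded. Each table was fitted whole, with R 4.3.3 and edgeR 4.0.16 (filterByExpr, TMM, robust quasi-likelihood F tests, two-sided, Benjamini-Hochberg adjustment over all tested genes, calls at an adjusted p below 0.05). The SE of a log2 difference is its size divided by the square root of F. The procedure was tested on simulated data. Alternatives were DESeq2 1.42.0, limma-voom (limma 3.58.1), other size factors, no filter, GC offsets, a replicate block and leaving out each library. Gene positions came from GENCODE 29, which matched 58496 of 60683 identifiers, and promoter windows from RefSeq.

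The 3 genes and the gene lists were chosen with earlier results of these data known, and some listed genes are not reported here. Genes named are these 3; called pathway genes whose libraries did not overlap and whose higher group reached 5 CPM, at most 8 a comparison by size; receptor, ligand and transcription factor genes by level; the 5 genes nearest to each of the 3; neighbours; and genes said to stand out, which were chosen after their values were seen (PARP9, IFITM1, OAS1 and ISG15 in the SETD3 table, TLR3). Library totals are given as a range with the results; floors cover counting error only.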

Additional observations from a re-analysis of the deposited data

Results flagged for a closer look

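IFI6, IFI27 and BST2 had every SETD3_KO1 library below and every SETD3_KO2 library above the mean of SETD3_CT, with log2 differences of SETD3_KO2 from SETD3_KO1 of 2.82, 4.16 and 4.17. They were chosen for this pattern, and the difference between the lines was not tested for them. TLR3 showed the same split (log2 2.96 between the lines, at 2.44, 0.636 and 5.2 CPM in SETD3_CT, SETD3_KO1 and SETD3_KO2); the split itself was not tested, and the comparison of the 2 lines did not pass (edgeR adjusted p = 0.999).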

How the results depend on the processing

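The log2 differences of IFI6, IFI27 and BST2 kept their sign under all 16 alternatives of each of the 6 comparisons, except that BST2 in ACTB-mut against ACTB-WT, at 0.08, reached 0 when 1 library was left out. The calls of IFI6 in both comparisons with Actin KO, and of IFI27 in ACTB-mut against Actin KO, held in all 16. IFI27 in ACTB-WT against Actin KO ran from -1.9 to -1.55 with a library left out and lost its call in 3 of those 9 fits. IFI27 in ACTB-mut against ACTB-WT ran from -1.51 to -1.15 and lost it in 9 of 9. It also lost it with limma-voom (-1.35, adjusted p = 0.177), GC offsets (-1.36, 0.0508), the replicate block (-1.37, 0.0726) and the block with GC offsets (-1.37, 0.08). Depth limits the precision of BST2 in SETD3_KO1, which rests on 12 to 28 counts a library.

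Counts of called genes moved more. For all genes, in the order ACTB-WT against Actin KO, ACTB-mut against Actin KO and ACTB-mut against ACTB-WT, DESeq2 called 358, 395 and 446 and edgeR without the filter 320, 371 and 402, against 155, 128 and 172; limma-voom called 89 in the first. In the order SETD3_KO1 against SETD3_CT, SETD3_KO2 against SETD3_CT and SETD3_KO2 against SETD3_KO1, DESeq2 called 72, 90 and 56, edgeR without the filter 58, 68 and 58 and with GC offsets 10, 29 and 14, against 2, 8 and 4; limma-voom called 9 in the last. With 1 library left out the counts were 79 to 135, 34 to 124 and 60 to 145 in the actin table and 0 to 4, 3 to 7 and 3 to 6 in the SETD3 table; the 34 came without Actin KO replicate 3. The cause was not tested.

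Of other interferon pathway genes, ACTB-WT against Actin KO had 8 calls, 3 with limma-voom and 14 without the filter; ACTB-mut against Actin KO had 5, 8 with DESeq2 and 10 without the filter; ACTB-mut against ACTB-WT had 3, 6 with DESeq2, 1 with limma-voom and 5 without the filter. SETD3_KO1 against SETD3_CT had 0 calls, 3 with DESeq2, 1 with limma-voom, 2 without the filter and 1 with GC offsets; SETD3_KO2 against SETD3_KO1 had 0, 2 with DESeq2, 1 with limma-voom, 3 without the filter and 1 with GC offsets. With 1 library left out they ran 4 to 7, 2 to 5 and 0 to 3 in the actin table and 0 to 1, 0 to 0 and 0 to 1 in the SETD3 table.

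The replicate numbers did not pair the libraries: correlations of same-numbered libraries were -0.1 to 0.07 in the actin table and -0.42 to 0.18 in the SETD3 table, with 0 and 1 of 9 over 0.1. Some differently numbered SETD3 libraries did correlate. SETD3_CT replicate 1 with SETD3_KO2 replicate 3 reached 0.41, and SETD3_CT replicate 2 with SETD3_KO2 replicate 1 reached 0.39. Others were opposed, as SETD3_CT replicate 2 with SETD3_KO2 replicate 3 at -0.39. SETD3_CT replicate 2 and SETD3_KO2 replicate 1 were the shallowest libraries of their groups, at 4898827 and 3389586 counts. SETD3_CT replicate 1 and SETD3_KO2 replicate 3 were the deepest of theirs, at 9966534 and 11652967 counts. What such libraries share, depth included, was not tested. With the replicate block, all-gene calls were 89, 85 and 83 in the actin table and 0 and 1 in the SETD3 comparisons with SETD3_CT, and with block and GC offsets 56 and 89 in the comparisons of ACTB-mut. Pathway calls with the replicate block were 4 in ACTB-WT against Actin KO (4 with GC offsets too), 3 in ACTB-mut against Actin KO with GC offsets, and 0 in ACTB-mut against ACTB-WT in both.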

Other observations

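Genes whose proteins are known partners of the 3 were read alongside. HSPA5, an endoplasmic reticulum chaperone bound by IFI6, stood at 111 ± 68.8 CPM in SETD3_CT, 117 ± 33.8 in SETD3_KO1 and 135 ± 74.5 in SETD3_KO2 (SD, n = 3). NR4A1, a nuclear receptor whose export IFI27 is known to promote, stood at 4.92 ± 2.62, 7.24 ± 2.75 and 13.0 ± 1.59 CPM, and its log2 difference of 1.39 in SETD3_KO2 against SETD3_CT did not pass (edgeR adjusted p = 0.959). BST2 is linked to cortical actin through ARHGAP44, SLC9A3R1 and ezrin (EZR). EZR was higher in ACTB-mut than in ACTB-WT, at 1010 ± 53.5 against 640 ± 91.1 CPM (log2 0.66, edgeR adjusted p = 0.0215). BST2 differed by 0.08 in that comparison. Against Actin KO, EZR differed by 0.17 on the log2 scale in ACTB-mut, with overlap, and by -0.49 in ACTB-WT, without overlap. Neither passed (edgeR adjusted p = 0.724 and 0.112). SLC9A3R1 was lowest in ACTB-mut, at 238 ± 22.9 CPM beside 343 ± 21.3 CPM with the empty construct and 335 ± 23.2 CPM with wild-type actin; neither comparison of ACTB-mut passed (edgeR adjusted p = 0.0517 and 0.0607). No partner gene was called in a SETD3 comparison by edgeR, where at most 0.0578% of all tested genes were called.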
